A study of Homo sapiens with 40 samples.

Results

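The genes described here are 10 genes that release, take up or store fatty acids: the lipases LPL, LIPC, LIPG, MGLL, PNPLA2 and PNPLA3, the fatty acid receptor CD36, and the lipid droplet proteins PLIN2, PLIN4 and PLIN5. They were chosen by gene name, 10 of the 56568 names in the tables, and all 10 were found in both tables. Each value is the FPKM of a gene, which is the number of fragments relative to transcript length and to all mapped fragments of its library, summed over every transcript that carries the gene's name.

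RNA was sequenced from differentiated HepaRG cells, a human hepatic line whose cultures hold both hepatocyte-like and biliary-like cells, in 40 libraries of 8 groups with 5 libraries each. All groups were kept from day 8 to day 14 in the same test medium with fetal bovine serum and DMSO, to which the solvent or a test agent was added. The groups were the solvent control, 100 pM, 10 nM or 1 µM of PCB 126 (a polychlorinated biphenyl and ligand of the aryl hydrocarbon receptor), 10 µg/L, 1 mg/L or 0.1 g/L of the herbicide glyphosate, and 10 µg/L of Roundup, a glyphosate-based herbicide. The PCB 126 and the herbicide comparisons share the same 5 control libraries. HepaRG is a single line from 1 supplier, and neither the labels nor the methods say that the libraries of a group came from separate cultures, so the p-values measure the spread between these libraries, which may be technical.

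Triglyceride in a liver cell is stored in lipid droplets, whose surface is coated by perilipins, and it is broken down stepwise: PNPLA2 (adipose triglyceride lipase) removes a fatty acid from triglyceride, and MGLL (monoglyceride lipase) cleaves the last one from glycerol. LPL, LIPC and LIPG are secreted lipases that act on lipoproteins outside the cell, and CD36 carries long-chain fatty acids across the plasma membrane. PNPLA3 is a droplet-associated relative of PNPLA2 whose common coding variant is a risk factor for fatty liver disease, PLIN2 is the main perilipin of hepatocytes, and PLIN5 ties droplets to mitochondria in oxidative tissues.

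PCB 126 acts through the aryl hydrocarbon receptor, whose core DNA element is GCGTG, and the promoter of PLIN2, the most abundant member by its named transcripts, is therefore shown. The annotated start windows, 250 bases before to 50 bases after each start, were taken from RefSeq (GRCh38.p14), with 12 windows for 7 of the 10 genes. MGLL and PNPLA3 had no match, and LPL was not used here. PLIN2 has a single window at chr9:19127443-19127742, on the minus strand. Of the FPKM assembled at PLIN2, including 1 transcript without a gene name, 99.01% came from transcripts that start inside it. The core element is in capitals, as GCGTG on the strand of the gene or as CACGC on the opposite strand, and it occurs 2 times.
PLIN2 promoter: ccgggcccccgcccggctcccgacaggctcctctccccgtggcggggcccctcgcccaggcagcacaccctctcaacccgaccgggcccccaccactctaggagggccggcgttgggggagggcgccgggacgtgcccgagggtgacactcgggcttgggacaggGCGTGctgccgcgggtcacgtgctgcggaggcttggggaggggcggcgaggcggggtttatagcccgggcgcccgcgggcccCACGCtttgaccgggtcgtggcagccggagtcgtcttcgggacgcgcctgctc
The window of CD36 where most of its RNA started is shown beside it, because it holds no match. It lies at chr7:80646196-80646495 on the plus strand, and 86.56% of the FPKM assembled at CD36 came from 5 of 24 transcripts that start there, 1 transcript without a gene name included.
CD36 promoter: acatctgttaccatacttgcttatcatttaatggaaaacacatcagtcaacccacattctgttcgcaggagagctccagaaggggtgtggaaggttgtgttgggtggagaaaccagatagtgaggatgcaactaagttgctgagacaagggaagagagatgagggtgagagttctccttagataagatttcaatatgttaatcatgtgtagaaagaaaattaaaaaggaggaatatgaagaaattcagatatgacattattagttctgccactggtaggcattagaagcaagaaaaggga
GCGTG was found on either strand in 4 of the 12 windows, with 3 matches in the window of LIPG, 2 in that of PLIN2, 2 in that of PLIN5 and 1 in another window of CD36. Of all 35116 windows of this length, 36.54% hold it. The direct repeat of AGGTCA with 1 base between the copies, an ideal site of PPAR receptors, was searched on both strands and occurred in 0 of the 12 windows and in 0.02278% of all windows. A match is a stretch of letters and not a measured binding site, and windows without a match say nothing of either receptor.

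The libraries differed in overall level. Summed FPKM lay between 255292 and 513059 per library, and 9 of the 40 libraries stood apart by a low median log2(FPKM + 1) of the tested genes, 2.76 or less against 3.00 or more in the others. These were control replicate 5, replicates 3 and 5 at 10 nM, replicates 1 and 5 at 1 µM, replicate 5 of glyphosate 10 µg/L, replicate 2 of glyphosate 0.1 g/L and replicates 4 and 5 of Roundup. Replicates carry the number of the run of library names they belong to, and the labels do not say what libraries of a run share. CYP1A1, the textbook target of the aryl hydrocarbon receptor, checked the PCB 126 labels: it was at 0 to 7.69 FPKM in the control libraries, 92.1 to 377 at 10 nM and 85.2 to 389 at 1 µM. At 100 pM it was at 1.09 to 319 FPKM, and 2 libraries labelled 100 pM, replicates 3 and 4, lay inside the control range at 3.21 and 1.09 FPKM.

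Markers of both cell types of the culture were present, though not every biliary marker. The summed FPKM of 8 hepatocyte markers was 14409 to 21028 in the control libraries and 5667 to 14227 at 1 µM, and that of 6 biliary markers 224 to 452 and 122 to 215. All 8 hepatocyte markers passed the PCB 126 filter. Of the 6 biliary markers, 3 passed it and 1 was under 0.1 FPKM in every control library. Adipocyte markers were near 0, with 0 of 6 past the variance filter, summed levels of 1.22 to 2.85 FPKM in the control libraries and 0.574 to 1.53 at 1 µM, and ADIPOQ and LEP at 0.0309 FPKM or less in every library. The 6 macrophage markers summed to 2.35 to 7.57 FPKM in the controls and 3.05 to 4.58 at 1 µM. Of them, 3 were under 0.1 FPKM in every control library, with PTPRC at 0.0428 or less in every library, and 1 passed the PCB 126 filter. The 5 endothelial markers summed to 0.8995 to 5.23 and 0.627 to 1.36 FPKM. Of these, 3 were under 0.1 FPKM in every control library, with CDH5 at 0.0168 or less in every library. The 1 endothelial marker past the PCB 126 filter was called lower in the trend (limma). In bulk RNA, fewer cells of a type and less RNA per cell cannot be told apart.

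Between genes, where FPKM allows a comparison per length, PLIN2, MGLL and PNPLA2 were the most abundant members. Over all 40 libraries their mean levels were 26.8, 18.4 and 20.9 FPKM, followed by PNPLA3 at 7.11, LPL at 5.63, LIPG at 3.58, CD36 at 2.96 and LIPC at 2.53. PLIN5 and PLIN4 were lowest at 0.858 and 0.796 FPKM. This order is that of the named transcripts. With the unnamed transcripts of each locus, PNPLA2 at 36.0 FPKM was above PLIN2 at 29.0, and PLIN5 at 7.27 and PLIN4 at 4.05 were above LIPG at 3.76. For PLIN5, 88.2% of that value was in unnamed transcripts of a locus that also holds LRG1. Which gene they belong to was not settled. The spread within a group also differed by gene: the coefficient of variation averaged 23.5% for LPL, 25.3% for PLIN2, 26.9% for PNPLA3 and 28.7% for MGLL, but 51.8% for PNPLA2, 53.2% for LIPC and 123% for PLIN4. When the 8 groups were ordered by mean level for each gene, all 70 pairs of neighbouring groups overlapped in their libraries.

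**Figure D1:**
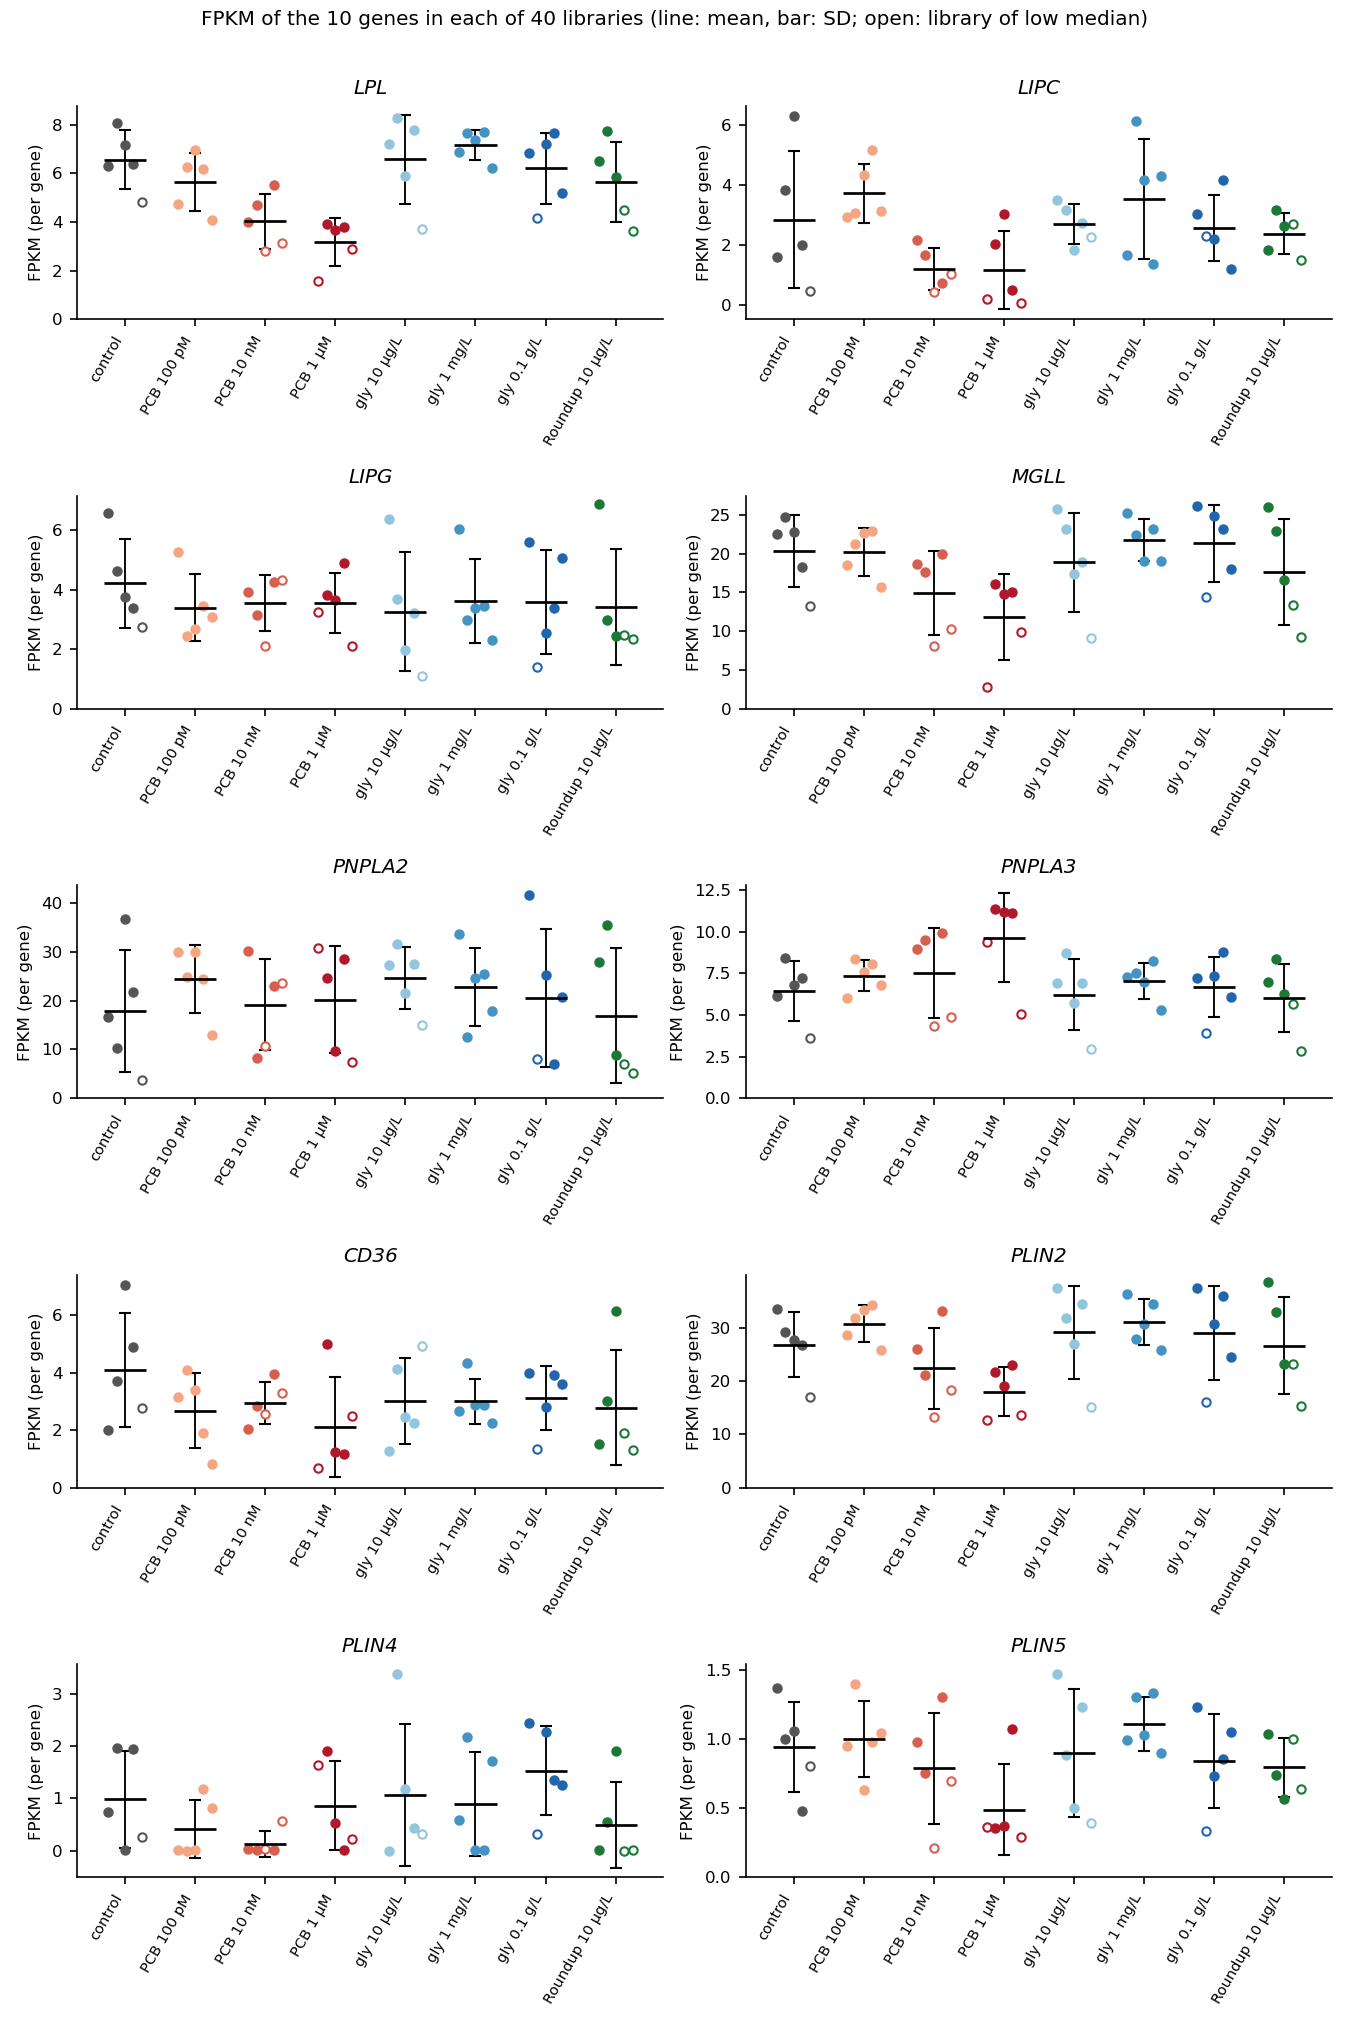
FPKM of each of the 10 genes (vertical axes, linear) in the 5 libraries of the 8 groups (horizontal axis); points are libraries, open points are the 9 libraries of low median, lines are group means and bars are SD. LPL at 1 µM of PCB 126 is the only set of treated libraries that lies wholly below the control libraries, and PLIN4, with a mean coefficient of variation of 123%, varies most within groups relative to its level.

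LPL, lipoprotein lipase, was lower with increasing PCB 126. In FPKM, the control libraries were at 6.30, 8.09, 7.19, 6.39 and 4.81, those at 100 pM at 4.75, 6.27, 6.96, 6.17 and 4.10, those at 10 nM at 3.99, 4.70, 2.78, 5.54 and 3.11, and those at 1 µM at 1.57, 3.92, 3.65, 3.79 and 2.904. All 5 libraries at 1 µM were below all 5 control libraries, 4 of 5 at 10 nM were, and 100 pM overlapped with the control range. Mean levels were 6.56 ± 1.22 FPKM for the control (SD, n = 5), then 5.65 ± 1.18, 4.03 ± 1.13 and 3.17 ± 0.977 FPKM over the rising doses.

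The trend of LPL over the 4 dose steps passed the test across all genes. On the log2(FPKM + 1) scale, where changes of low genes come out too small, LPL fell by 0.31 per dose step (SE 0.07, limma, adjusted p = 0.0127). It was the 1 member of 8 tested that passed, where 3.78% of all 9755 tested genes did (369 genes, 90 higher and 279 lower). In the single comparison at 1 µM the log2 difference of LPL was -0.88 (SE 0.24, 95% interval -1.37 to -0.39), and its adjusted p of 0.0542 (limma) was just above the threshold of 0.05. At 10 nM the log2 difference was -0.60 (limma, adjusted p = 0.799) and at 100 pM -0.19 (limma, adjusted p = 1). Leaving out the libraries of low median, the difference at 1 µM was -0.73 with a limma adjusted p of 0.0152, and over all alternatives the adjusted p lay between 0.000288 and 0.166. Without those libraries 526 of all genes passed at 1 µM, against 182 with every library.

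Within the gene, which lies at chr8:19901717-19967258 of GRCh38, 90.2% of the FPKM of LPL was in 1 of its 7 annotated transcripts, ENST00000311322 with 10 exons. That transcript was at 5.92 ± 1.38 FPKM (SD, n = 5) without PCB 126 and at 5.24 ± 1.01, 3.37 ± 1.24 and 2.32 ± 0.838 FPKM with rising dose. A short transcript of 2 exons, ENST00000523696, was at 0.581 ± 0.301 FPKM in the control group and 0.837 ± 0.547 at 1 µM. The lower level of the gene was thus carried by its main transcript. The summed hepatocyte markers were also lower at 1 µM. Of the 8 genes, 6 had a negative difference, at that dose and in the trend. Those called, 2 of 8 at 1 µM and 4 of 8 in the trend, were all lower (limma). The summed stellate cell and fibroblast markers were 41.0 to 91.8 FPKM in the control libraries and 50.8 to 190 at 1 µM. The 6 genes of that list went both ways. At 1 µM, 3 of 6 had a negative difference, with 0 called higher and 1 called lower (limma). In the trend 1 was called higher and 2 lower. The part of either list in the level of LPL was not tested.

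LIPC and LIPG, the hepatic and the endothelial lipase, did not pass the test in any comparison with all libraries. LIPC (chr15:58410569-58569843) was at 1.63, 3.83, 6.31, 2.01 and 0.494 FPKM in the control libraries and at 0.206, 2.05, 3.06, 0.506 and 0.0895 at 1 µM. The control libraries spanned a range that covered most of the treated ones. The log2 difference at 1 µM was -0.82 (SE 0.38, limma, unadjusted p = 0.0418 and adjusted p = 0.342), and at 10 nM it was -0.65 (limma, adjusted p = 0.865). The control mean of LIPC was 2.85 ± 2.27 FPKM (SD, n = 5), and the means at the rising doses were 3.73 ± 0.981, 1.22 ± 0.692 and 1.18 ± 1.31. The 100 pM libraries, 2.93 to 5.18 FPKM, all lay above the 10 nM libraries, 0.464 to 2.17, a pair noticed after the values were seen. That difference had a limma adjusted p of 0.675, in a comparison where 0% of genes were called and 558 of 9755 had an unadjusted p under 0.05. Transcripts without a gene name held 40.6% of the FPKM at this locus, and with them the groups overlapped, at 3.32 to 6.47 FPKM for 100 pM and 1.91 to 4.47 for 10 nM. The trend of LIPC was -0.36 per dose step (limma, adjusted p = 0.122), and without control replicate 5, of low median, it was -0.46 and passed (limma, adjusted p = 0.0200). Without that library 1068 of all genes passed in the trend, against 369 with every library.

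LIPG (chr18:49560699-49599182) was at 6.59, 4.62, 3.75, 3.37 and 2.75 FPKM in the control libraries and at 3.26, 3.82, 3.64, 4.91 and 2.11 at 1 µM. These libraries overlapped, and the log2 difference was -0.18 (95% interval -0.70 to 0.33, limma, adjusted p = 0.731). Across the 8 groups its mean lay between 3.27 ± 2.01 FPKM (glyphosate 10 µg/L) and 4.22 ± 1.49 FPKM (control).

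MGLL (chr3:127689062-127823250), which releases the last fatty acid of a triglyceride and also degrades the endocannabinoid 2-arachidonoylglycerol, was at 22.5, 24.7, 22.8, 18.3 and 13.2 FPKM in the control libraries. At 10 nM it was at 18.6, 17.6, 8.11, 20.0 and 10.3 FPKM, and at 1 µM at 2.82, 16.1, 14.8, 15.1 and 9.95 FPKM. At 1 µM, 4 of 5 control libraries were above every treated library and control replicate 5, of low median, was not. The control mean was 20.3 ± 4.62 FPKM (SD, n = 5), and the means at the rising doses were 20.2 ± 3.098, 14.9 ± 5.36 and 11.8 ± 5.54. The log2 difference at 1 µM was -0.89 (SE 0.34, 95% interval -1.59 to -0.19), with an unadjusted p of 0.0150 and an adjusted p of 0.226 (limma), and the trend of -0.31 per dose step had an adjusted p of 0.0956 (limma). Without control replicate 5 the trend was -0.36 with a limma adjusted p of 0.0332 (0.00930 to 0.362 over all alternatives). In that setting 1068 of all genes passed in the trend, against 369 with every library. The FPKM of MGLL was spread over several transcripts, and the most abundant of them held 43.5%.

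PNPLA2 (chr11:818902-825573) was the least stable of the abundant lipases. It was at 16.7, 10.4, 36.9, 21.8 and 3.78 FPKM in the control libraries and at 30.9, 24.6, 9.69, 28.6 and 7.45 at 1 µM. The groups overlapped, and the log2 difference at 1 µM was 0.28 (SE 0.47, limma, adjusted p = 0.784). At 100 pM the log2 difference was 0.68 with a limma adjusted p of 1. Transcripts assembled at this locus without a gene name held 42.0% of its FPKM. With them included, PNPLA2 was at 36.6 ± 10.9 FPKM (SD, n = 5) in the control group and 35.5 ± 8.62 at 1 µM, and the spread within the control group was smaller than for the named transcripts, 17.9 ± 12.6.

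PNPLA3 (chr22:43923739-43964488) was the member with the highest mean at 1 µM relative to the control group. It was at 6.13, 8.40, 6.82, 7.23 and 3.59 FPKM in the control libraries, at 8.94, 9.53, 4.34, 9.94 and 4.85 at 10 nM, and at 9.35, 11.4, 11.2, 11.1 and 5.08 at 1 µM. Of the 1 µM libraries, 4 of 5 were above every control library, and replicate 5, of low median, was not. The log2 difference at 1 µM was 0.51 (SE 0.27, 95% interval -0.04 to 1.06), which did not pass the test (limma, adjusted p = 0.411). Without the libraries of low median it was 0.60 and passed (limma, adjusted p = 0.0140), and it also passed after scaling each library by its 75th percentile, at 0.66 (limma, adjusted p = 0.0331). In these settings 526 and 592 of all genes passed, against 182. Over all alternatives the adjusted p of PNPLA3 lay between 0.00124 and 0.989. The control mean of PNPLA3 was 6.43 ± 1.79 FPKM (SD, n = 5), and the means at the rising doses were 7.36 ± 0.948, 7.52 ± 2.70 and 9.63 ± 2.68.

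LPL and PNPLA3 had nearly equal FPKM in unexposed cells and differed in every 1 µM library. A ratio within a library does not depend on how the library is scaled. The FPKM of PNPLA3 divided by that of LPL was 0.973, 1.04, 0.949, 1.13 and 0.747 in the control libraries. It was 1.27, 1.33, 1.09, 1.31 and 1.66 at 100 pM, 2.24, 2.03, 1.56, 1.80 and 1.56 at 10 nM, and 5.95, 2.903, 3.06, 2.94 and 1.75 at 1 µM. Every library at 10 nM and at 1 µM was above every control library, libraries of low median included. In the herbicide groups the ratio was 0.777 to 1.26. The ratio was chosen after the values were seen and is given as a description, with no test, and it shows unequal change of the 2 genes and not that either was constant.

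**Figure D2:**
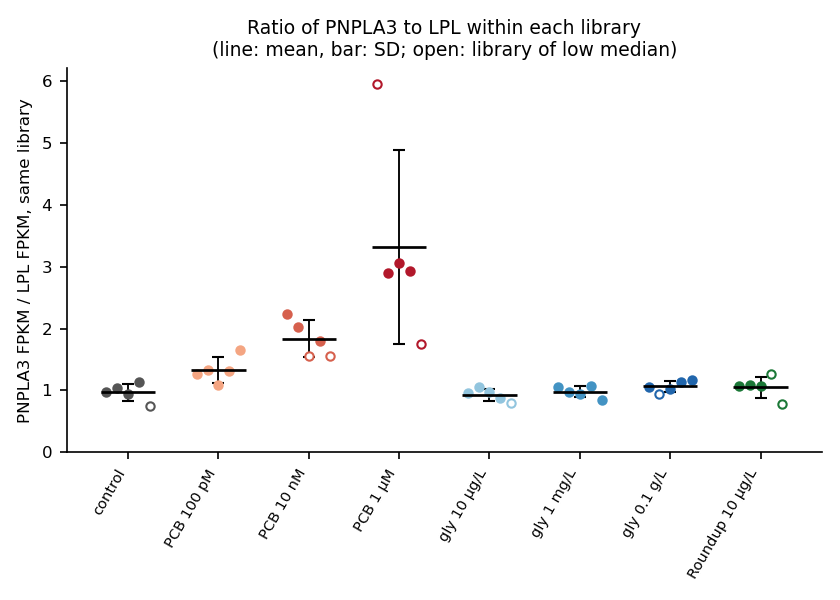
FPKM of PNPLA3 divided by FPKM of LPL in the same library (vertical axis, linear, no unit) by group (horizontal axis); points are libraries, open points are libraries of low median, lines are means and bars are SD over 5 libraries. The mean was 0.968 ± 0.142 in the control group and 3.32 ± 1.56 at 1 µM of PCB 126, while the herbicide groups stayed between 0.777 and 1.26.

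PNPLA3 was likewise compared with MGLL and PLIN2. PNPLA3 over MGLL was 0.272 to 0.396 in the control libraries, 0.473 to 0.541 at 10 nM and 0.511 to 3.31 at 1 µM, with no overlap with the controls at either dose. PNPLA3 over PLIN2 was 0.183 to 0.288 in the control libraries and 0.372 to 0.732 at 1 µM, again without overlap, while its range of 0.263 to 0.450 at 10 nM overlapped with the controls. MGLL over LPL, by contrast, was 2.75 to 3.58 in the control libraries and 1.80 to 4.12 at 1 µM, which overlapped.

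CD36 (chr7:80369575-80679277), the fatty acid translocase, was at 2.01, 3.72, 7.06, 4.87 and 2.78 FPKM in the control libraries and at 0.697, 4.98, 1.23, 1.16 and 2.48 at 1 µM. The ranges overlapped, although 3 of 5 libraries at 1 µM were below every control library. The log2 difference at 1 µM was -0.78 (SE 0.34, limma, unadjusted p = 0.0284 and adjusted p = 0.295), and at 100 pM it was -0.48 (limma, adjusted p = 1). For the named transcripts, the control group had the highest mean of the 8 groups, 4.09 ± 1.98 FPKM (SD, n = 5). The others lay between 2.11 ± 1.74 (PCB 126 1 µM) and 3.13 ± 1.11 (glyphosate 0.1 g/L). Transcripts without a gene name held 29.1% of the FPKM at this locus. With them the means were 4.69 ± 1.44 FPKM in the control group and 2.80 ± 1.62 at 1 µM. The remaining groups then lay nearer to the control, with means of 4.44 FPKM at 100 pM and 4.43 at 10 nM. The rising glyphosate doses were at 4.40, 4.48 and 4.43 FPKM, and Roundup at 3.79. The log2 differences given above are those of the named transcripts.

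PLIN2 (chr9:19108375-19149290), the droplet coat protein whose promoter is printed above, was at 33.5, 29.2, 27.8, 26.9 and 17.1 FPKM in the control libraries. It was at 28.7, 31.9, 33.3, 34.2 and 25.8 FPKM at 100 pM, at 26.0, 21.2, 13.3, 33.2 and 18.4 at 10 nM, and at 12.8, 21.7, 19.1, 23.0 and 13.6 at 1 µM. Apart from control replicate 5, of low median, every control library was above every library at 1 µM. The log2 difference at 1 µM was -0.55 (SE 0.25, limma, unadjusted p = 0.0394 and adjusted p = 0.334), and the trend of -0.22 per dose step had a limma adjusted p of 0.138. Without control replicate 5 the trend of PLIN2 was -0.27 with a limma adjusted p of 0.0281 (0.00962 to 0.322 over all alternatives), where 1068 of all genes passed against 369. A single transcript of 8 exons, ENST00000276914, carried 91.7% of its FPKM, at 25.0 ± 5.64 (SD, n = 5) in the control group and 15.5 ± 3.099 at 1 µM.

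PLIN4 and PLIN5, neighbouring genes on chromosome 19, were too low for the variance filter of 1 and were tested alone with 2-sided exact permutation tests over the 252 splits of 5 libraries against 5, whose smallest possible p is 0.00794. PLIN4 (chr19:4502180-4518465) was at 0.734, 1.97, 0.0134, 1.95 and 0.258 FPKM in the control libraries and at 0.0357, 0.0075, 0.0258, 0.0042 and 0.572 at 10 nM. The 10 nM libraries overlapped with the controls through their extremes (exact permutation p = 0.0714). At 1 µM it was at 1.64, 1.91, 0.529, 0.0034 and 0.225 FPKM (exact permutation p = 0.794). Unnamed transcripts held 80.3% of the FPKM at this locus, so the named transcripts are a small part of what was assembled there. With the unnamed transcripts the mean was 4.05 ± 1.09 FPKM in the control group. It was 3.11 ± 1.48 at 10 nM (exact permutation p = 0.246) and 2.94 ± 0.892 at 1 µM (exact permutation p = 0.127).

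PLIN5 (chr19:4522531-4535224) was at 1.37, 1.00, 1.06, 0.479 and 0.805 FPKM in the control libraries and at 0.364, 0.353, 0.369, 1.07 and 0.288 at 1 µM. At 1 µM, 4 of 5 libraries were below every control library, and replicate 4 was above 4 of the 5 controls. The difference on the log2 scale was -0.39 with an exact permutation p of 0.0714, and in the fit without a filter its limma adjusted p was 0.517. Transcripts without a gene name held 88.2% of the summed FPKM of the named PLIN5 and the unnamed transcripts. With them the means were 8.23 ± 3.15 FPKM (SD, n = 5) in the control group and 4.47 ± 1.88 at 1 µM, a log2 difference of -0.77 with an exact permutation p of 0.0317. The exact p-values of PLIN4 and PLIN5 were not adjusted for the number of tests, and this was the smallest over all comparisons. The assembled locus of PLIN5 also holds LRG1, so which gene the unnamed transcripts belong to was not settled.

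**Figure D3:**
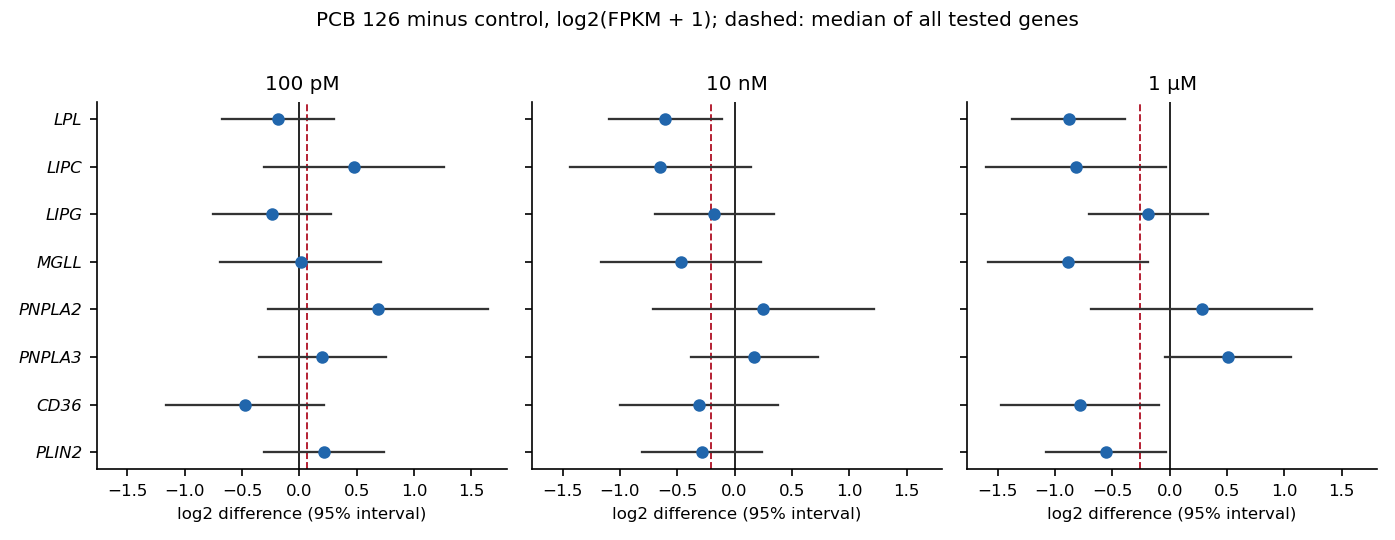
Difference in log2(FPKM + 1) between each PCB 126 dose and the control group (horizontal axes) for the 8 members past the variance filter (vertical axis), with 95% intervals from limma as bars; the dashed line is the median of all 9755 tested genes. At 1 µM, LPL, LIPC, MGLL, CD36 and PLIN2 lie between -0.89 and -0.55, and PNPLA2 and PNPLA3 at 0.28 and 0.51.

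Over the 8 members tested, 0 passed the threshold at any of the 3 doses, 100 pM, 10 nM or 1 µM (limma, adjusted p), where 0%, 0.205% and 1.87% of all tested genes did. At an unadjusted p under 0.05 the counts were 0, 1 and 5 of 8 members and 116, 473 and 1322 of all 9755 genes. At 1 µM, 6 of the 8 had a negative difference, and their median was -0.67 on the log2 scale against -0.26 over all tested genes. At 10 nM the medians were -0.30 and -0.21, and at 100 pM 0.11 and 0.07. The median of all genes moved with the scaling: at 1 µM it was -0.12 with 75th percentile scaling and -0.01 with quantile normalization, where the median of the members was -0.54 and -0.39.

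The processing decided how many members passed at 1 µM. With 75th percentile scaling LPL and PNPLA3 passed (2 of 8), where the calls over all genes rose from 182 (63 higher, 119 lower) to 592 (247 higher, 345 lower). With quantile normalization LPL, MGLL, PLIN2 and PNPLA3 passed (4 of 8), beside 1085 genes (532 higher, 553 lower), and in an ordinary model with library size as a term LPL and PNPLA3 passed, beside 823 genes (448 higher, 375 lower). After 75th percentile scaling, 3 members at 1 µM lay wholly below the controls: LPL at 2.24 to 3.77 against 5.35 to 6.68 scaled FPKM, MGLL at 4.02 to 15.5 against 17.5 to 20.4, and PLIN2 at 15.7 to 20.8 against 22.6 to 28.5. How many of all genes lay without overlap was not counted, here or in the other comparisons, so these positions only describe the members.

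**Figure D4:**
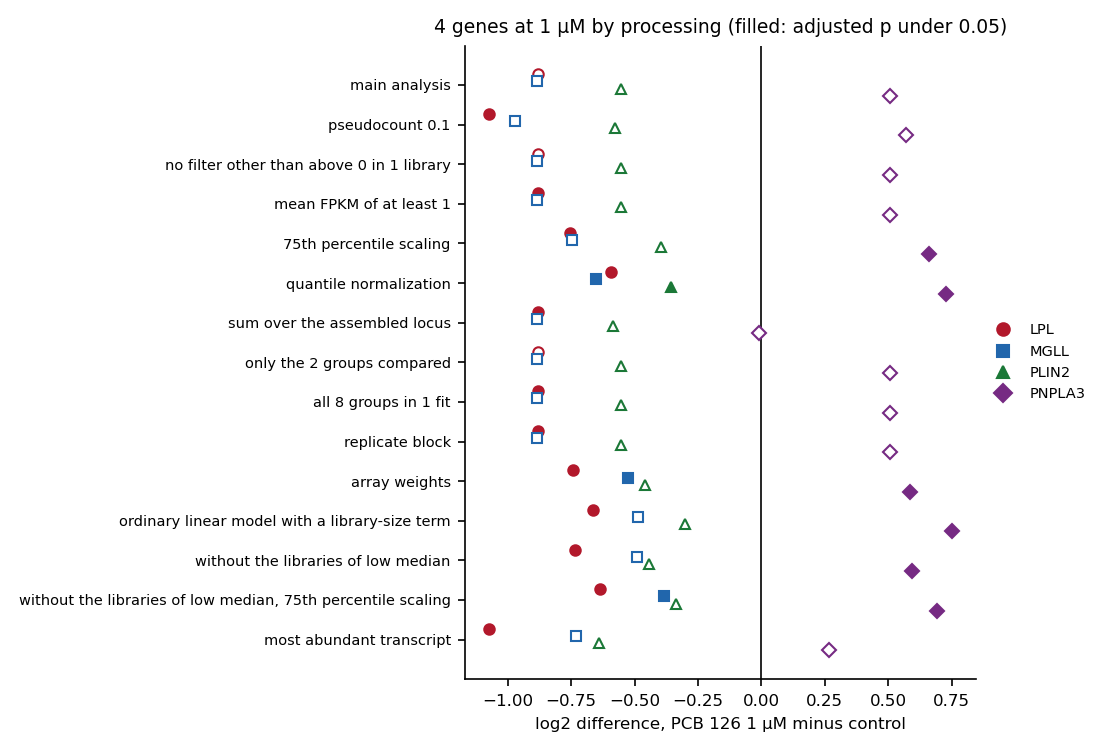
Log2 difference between PCB 126 at 1 µM and the control group (horizontal axis) of LPL, MGLL, PLIN2 and PNPLA3 under 15 ways of processing (vertical axis); filled symbols have an adjusted p under 0.05. LPL lies at -0.59 or below in every setting shown, and PNPLA3 above 0 in all but the sum over the assembled locus, where it lies at -0.01.

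Genes of the same pathways that are no members were read from lists of other lipases and lipase regulators, uptake genes, droplet proteins and nuclear receptors. Of 14 tested lipases and regulators, 0 passed at 1 µM. Of 13 tested uptake genes, CAV1, the main protein of caveolae, fell from 170 ± 50.3 to 46.8 ± 23.3 FPKM (log2 difference -2.02, limma, adjusted p = 0.00430), and the other 12 did not pass. Of 8 tested droplet proteins 0 passed. Of 7 tested nuclear receptors and coactivators, 2 fell at 1 µM: PPARGC1A, a coactivator of fatty acid oxidation genes, from 6.50 ± 2.36 to 1.54 ± 0.658 FPKM (log2 difference -1.54, limma, adjusted p = 0.00268), and NR1H4, the bile acid receptor FXR, from 8.38 ± 3.75 to 2.99 ± 0.927 FPKM (log2 difference -1.19, limma, adjusted p = 0.0348). The median differences of the 4 lists at 1 µM were -0.40, -0.31, -0.27 and -0.41 on the log2 scale, beside -0.26 over all genes.

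No member changed past the threshold with a herbicide. In each of the 4 comparisons with the control group, 0 of 8 members passed (limma), where 0% of the 9533 tested genes did, and 0 of 8 members had an unadjusted p under 0.05, against 95, 125, 84 and 165 of all genes for the 3 rising glyphosate doses and Roundup. The 95% intervals of the 8 members together spanned -1.03 to 1.73 at glyphosate 10 µg/L, -0.92 to 1.59 at 1 mg/L, -0.91 to 1.24 at 0.1 g/L and -1.16 to 0.88 for Roundup, on the log2 scale. The upper bounds of the 3 glyphosate doses were those of PNPLA2, and single members had narrower intervals, such as -0.48 to 0.44 for LPL at glyphosate 10 µg/L.

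Single members show how the herbicide libraries lay. LPL was at 7.22, 8.31, 5.89, 7.79 and 3.69 FPKM at glyphosate 10 µg/L, at 6.90, 7.67, 7.39, 7.71 and 6.24 at 1 mg/L, at 6.83, 4.17, 7.20, 7.68 and 5.21 at 0.1 g/L, and at 6.52, 7.77, 5.84, 4.49 and 3.62 with Roundup. All 4 ranges overlapped with the control range of 4.81 to 8.09, and the values below it belonged to the libraries of low median, replicate 5 of glyphosate 10 µg/L, replicate 2 of glyphosate 0.1 g/L and replicates 4 and 5 of Roundup. PLIN2 was at 15.2 to 38.7 FPKM over all herbicide libraries and PNPLA3 at 2.81 to 8.76, against 17.1 to 33.5 and 3.59 to 8.40 in the controls. The largest herbicide difference of a member against the control group was that of PNPLA2 at glyphosate 10 µg/L, 0.71 on the log2 scale (limma, adjusted p = 1). It was 0.0022 in the sum over the assembled locus and 1.83 for the most abundant transcript, and with unnamed transcripts the means were 37.3 ± 12.6 FPKM (SD, n = 5) with glyphosate and 36.6 ± 10.9 in the control group.

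With Roundup, all 8 tested members had a negative difference, with a median of -0.17 beside -0.18 over all genes, and CD36 had the lowest at -0.48 (limma, adjusted p = 0.902). Roundup and glyphosate were compared at the matched nominal 10 µg/L, with 0 of 8 members passing (limma) where 0% of genes did and 0 of 8 and 121 of all genes under an unadjusted p of 0.05. The lowest was PNPLA2, at 28.0, 35.6, 8.77, 7.04 and 5.20 FPKM with Roundup and 27.3, 31.6, 21.6, 27.5 and 15.1 with glyphosate, which overlapped (log2 difference -0.84, 95% interval -1.86 to 0.18, limma, adjusted p = 0.974). Over the glyphosate dose steps 0 of 8 members and 0% of the 9328 tested genes had a trend (limma), and 0 and 112 at an unadjusted p under 0.05. After 75th percentile scaling, MGLL at glyphosate 0.1 g/L was the 1 member without overlap with the controls, by a gap of 20.4044 against 20.4001 scaled FPKM.

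**Figure D5:**
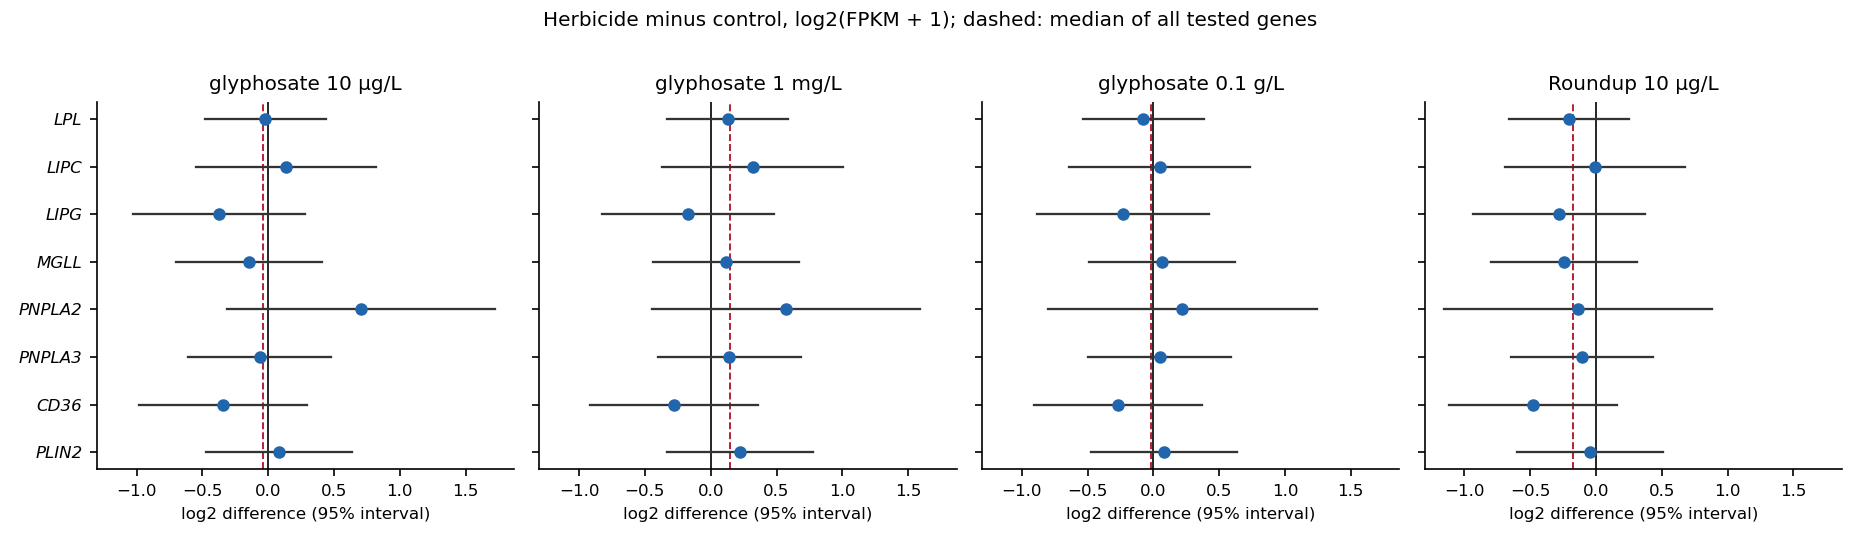
Difference in log2(FPKM + 1) between each herbicide group and the control group (horizontal axes) for the 8 members past the variance filter (vertical axis), with 95% intervals from limma as bars; the dashed line is the median of all 9533 tested genes. Every interval includes 0.

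Across the 40 libraries, the members fell into tightly and loosely shared patterns. Pearson's r of log2(FPKM + 1) was 0.899 between LPL and MGLL, 0.888 between MGLL and PLIN2 and 0.864 between LPL and PLIN2, and 0.803, 0.733 and 0.720 after 75th percentile scaling. LPL and PNPLA3 had an r of 0.233, and of -0.503 after scaling. These are descriptions over 40 libraries that share the overall level of each library and the 8 groups. Among 9260 genes tested in both tables, those most like LPL were PLXDC2 (r = 0.979), DUSP10 (0.976) and RHOBTB3 (0.964), those most like MGLL were LITAF (0.976), TIMP2 (0.9749) and TOB1 (0.972), and those most like PLIN2 were FAM96A (0.963), PCCA (0.958) and GOT1 (0.956). PNPLA3 was most like PNMA1 (0.933), SDC3 (0.931) and SYNJ2 (0.926), and LIPG most like CEBPD (0.832), AQP3 (0.829) and CXCL2 (0.827). The members of large spread had weaker likenesses: PNPLA2 with RPH3AL (0.760), BUD31 (0.739) and LAMTOR2 (0.726), LIPC with MAT2A (0.739), ADGRB2 (0.728) and XRN1 (0.720), and CD36 with POLK (0.580), AC113191.1 (0.573) and CREBRF (0.533).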

How the data were processed

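RNA of 40 HepaRG libraries was measured, 5 in each of 8 groups that were taken from the labels. Per the study's methods and the labels, the authors aligned reads to GRCh38 with HISAT2, quantified transcripts with StringTie on an Ensembl annotation, and deposited FPKM for 234960 transcripts in each of 2 tables, without pooling, filtering or scaling between libraries. A few deposited columns hold values just below 0 and were therefore read as a score; these values, 4 among the PCB 126 columns and 6 among the glyphosate columns, were replaced by 0. FPKM were summed per gene name, which leaves out 35782 transcripts that carry no name. The control columns of both tables held identical values, and 0 pairs of different libraries did. The tables carry no read counts, so the number of libraries, 5 per group, limits the precision.

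Differences were computed on log2(FPKM + 1) for genes with a variance of FPKM above 1 (9755 for PCB 126 and 9533 for glyphosate) with limma 3.58.1 in R 4.3.3, with no covariate, all groups of a table in 1 model and Benjamini-Hochberg adjustment over all tested genes at 0.05. Dose trends used steps 0 to 3. The model was tested on simulated data. Deviations were shuffled within each gene there, so levels shared by the genes of a library were not part of that test. Genes outside the filter, PLIN4 and PLIN5, were compared with 2-sided exact permutation tests. Named genes were the 10 members, up to 6 genes per pathway list past the threshold, the 3 genes most correlated with each tested member and CYP1A1. Members and lists were chosen with earlier results of these data known. Promoter windows came from RefSeq. Alternatives changed the pseudocount (0.1), the filter, the scaling, the value per gene, the libraries, the model and the weights. The alternatives without the 9 libraries of low median, whose limit of 2.9 on the median was set from the values, were added after seeing the data. Same-numbered libraries of different groups were checked for shared deviations, and since not every pair had a correlation over 0.1 the numbers were not taken as a pairing. Of the 40 libraries, 25 correlated best with one of their own number. The median correlation was 0.0522 between libraries of the same number and -0.0204 between those of different numbers. Same-numbered libraries thus tended to share deviations, and the main model does not account for them. Python 3.11.15 was used for the other steps. The trend result of 1 gene of the list of other lipases and lipase regulators is not reported here.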

Additional observations from a re-analysis of the deposited data

Results flagged for a closer look

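Among the 80 combinations of a gene and a group, 3 held a library far from the other 4. Chance gives about 1 in 20 combinations, so 3 of 80 is no more than that rate. LIPG with Roundup was at 6.88 FPKM in replicate 1 and at 2.33 to 2.97 in the others, and replicate 1 was also the highest LIPG library of the control group at 6.59, of 100 pM of PCB 126 at 5.28 and of the rising glyphosate doses at 6.37, 6.03 and 5.62, but not at 10 nM or 1 µM of PCB 126. PLIN4 at 10 nM of PCB 126 was at 0.572 FPKM in replicate 5, a library of low median, and at 0.0042 to 0.0357 in the others. PLIN5 at 1 µM was at 1.07 FPKM in replicate 4 and at 0.288 to 0.369 in the others.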

How the results depend on the processing

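The trend of LPL over the PCB 126 doses passed in all 32 alternatives (log2 -0.38 to -0.19 per step, adjusted p 5.5e-05 to 0.0396), and the difference of LPL at 1 µM passed in 15 of 34 (adjusted p 0.000288 to 0.166). Members called at 1 µM are given by setting, with the calls over all genes in brackets, against 182 in the main analysis. There was 1, LPL, with a pseudocount of 0.1 (161), a filter on a mean of at least 1 FPKM (199) and the most abundant transcript (129). The locus sum (397), all 8 groups in 1 model (298) and the replicate block (357) also gave 1, LPL. The count was 2 (LPL, PNPLA3) with 75th percentile scaling (592), the ordinary model (823) and without the libraries of low median (526). It was 3 (also MGLL) with array weights (895) and without those libraries under 75th percentile scaling (706). With quantile normalization (1085) it was 4 (also PLIN2). Leaving out 1 library gave 0 to 1, with 1 without replicate 5 of the control group or replicate 3 or 4 at 10 nM. At 10 nM, 1 (LPL) passed with quantile normalization, array weights and the ordinary model, where 184, 223 and 113 of all genes did against 20. In the trend, with the calls over all genes in brackets against 369, 4 passed with 75th percentile scaling (841), quantile normalization (1242) and array weights (1160). These were LPL, MGLL, PLIN2 and PNPLA3. The count was 3 with the locus sum (714), for LPL, MGLL and PLIN5, whose locus also holds LRG1. It was also 3 without the libraries of low median (593, and 781 with 75th percentile scaling). The ordinary model (871) gave 2. Leaving out 1 library gave 1 to 4 in the trend, the 4 without replicate 5 of the control group (1068). With array weights, fitted gene by gene since the default did not converge, 1 member (PNPLA2) passed between Roundup and glyphosate, where 817 genes did, and 550 genes passed between Roundup and the control group. The cause was not tested.

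Some differences that did not pass changed sign: CD36 with Roundup under array weights (0.19), LIPG under quantile normalization (0.085 at 1 µM, 0.059 in the trend), and PNPLA3 in the locus sum, which also holds SAMM50 (-0.0089 and -0.027). PNPLA2 at 1 µM was -0.026 in the locus sum, -0.16 with array weights, -0.024 without the libraries of low median and -0.14 to 0.61 with 1 library left out; its trend was -0.030, -0.073, -0.044 (-0.025 with 75th percentile scaling) and -0.094 to 0.13. Over all genes, 129 to 1085 passed at 1 µM (118 to 365 with 1 library left out) against 182, and 242 to 1242 in the trend (223 to 1068) against 369. Same-numbered libraries of different groups had a median correlation of 0.0522 (lowest -0.173, 41 of 140 pairs over 0.1) against -0.0204 for different numbers, and 25 of 40 correlated best with their own number. The labels do not say what a number shares. With the replicate block the adjusted p of LPL at 1 µM was 0.0168, and the block changed no member count other than that at 1 µM. The 5 libraries per group limit what could be detected, and FPKM without counts gives no counting error.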
